A study of Arabidopsis thaliana with 9 samples.

Results

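Variegated plants with msh1 silenced by RNA interference (RNAi) were compared with wild-type Arabidopsis thaliana plants by microarray. The comparison takes in every array that the study's titles call variegated, 3 arrays, and every array titled as wild type Col-0, also 3 arrays, so 6 of the 9 arrays in the series. Each array was hybridised with biotin-labelled cRNA from total RNA of above-ground tissue of a plant of the Col-0 background, 8 weeks old and grown in a greenhouse with equal day and night. The variegated plants carried the msh1 RNAi genotype and were labelled for variegation, the wild-type plants had the wild-type genotype, and the remaining 3 arrays held msh1 RNAi plants with a stunted phenotype. The labels give each group 3 biological replicates but do not give the promoter of the RNAi construct, the number of independent lines or which leaf sectors were sampled.

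MSH1 is a nuclear gene for a MutS-type DNA repair protein that works in mitochondria and plastids, where it holds back recombination between repeated sequences of the organelle genomes. Loss of MSH1 in plants is known for rearranged mitochondrial DNA and for green and white variegated leaves. Mitochondria under stress send signals to the nucleus that switch on a set of nuclear genes, and alternative dehydrogenases and oxidases can then carry electrons past the usual respiratory complexes. MSH1 itself was not analysed here, because no probe set used here is listed for it, so the level of the silenced transcript is not given as a check of the labels.

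The values are the authors' log2 expression levels, 1 per probe set and array. A difference of 1 on this scale is a 2-fold difference. After 64 control probe sets were set aside, 22746 probe sets were tested with limma in a fit over all 9 arrays, and a probe set was called at a Benjamini-Hochberg adjusted p under 0.05. Of these, 13513 are listed with 1 gene, and they give 13356 genes, each represented by its brightest probe set. The median level lay between 3.37 and 3.43 in all 9 arrays, and arrays of the same group correlated at 0.990 to 0.995 against 0.988 to 0.991 between variegated and wild-type arrays. RCA, the activase of Rubisco in green leaf cells, had a level of 12.84, 12.76 and 12.85 in the variegated arrays, against 12.52, 12.73 and 12.85 in the wild-type arrays, so the leaf marker was near the top of the scale in all 6. Single measured markers of guard cells (FMA), trichomes (TRY) and shoot meristem (CLV3), 2 of anther (AMS and AT5G07230) and 2 of root (EXPA7 and PYK10) lay between 2.58 and 4.45 in the 6 arrays, and the groups overlapped for every one of them.

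In the variegated plants 61 probe sets rose and 40 fell, together 101 or 0.444% of those tested, with 0.268% rising and 0.176% falling. An unadjusted p under 0.05 was reached by 2633 probe sets. No called probe set had overlapping arrays, but the calls were made on these same arrays, so this is not separate support. Over all genes, 8.71% had variegated arrays wholly above wild type and 6.98% wholly below. Named genes made up 48 of the calls: 29 genes rose, 0.217% of the 13356, and 19 fell, 0.142%. The other 53 called probe sets had several genes or no gene listed. Among the named genes 8 rose and 6 fell by at least 2-fold. By the annotation 44 are nuclear, 3 mitochondrial (ccb452, nad1 and nad5) and 1 plastid (rpl20). In RNA from whole tissue, fewer cells of a type and less RNA per cell cannot be told apart. The GAPDH control, a measure of RNA integrity given as the 3′ signal minus the 5′ signal, averaged 0.17 ± 0.048 in variegated and 0.29 ± 0.047 in wild-type arrays (log2, SD, n = 3 each), and its arrays did not overlap (exact permutation p = 0.1, the smallest that 3 against 3 arrays can give). Its part in the results was not tested. The same difference for actin averaged 2.33 ± 0.30 in variegated and 2.41 ± 0.25 in wild-type arrays and overlapped. The log2 level of the 25S ribosomal RNA control averaged 6.04 ± 2.28 in variegated and 4.96 ± 1.28 in wild-type arrays, with the third array of each group the highest, at 8.66 in the variegated and 6.44 in the wild-type array, and the groups overlapped (exact permutation p = 0.5).

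The largest rise of any called gene was that of AT2G21640, a nuclear gene known to be switched on by oxidative stress and used as a marker of mitochondrial dysfunction. Its level was 6.84, 6.63 and 6.01 in the variegated arrays, against 3.73, 4.09 and 4.01 in the wild-type arrays. All variegated arrays stood well above all wild-type arrays, a 5.87-fold rise of 2.55 ± 0.21 (SE; limma adjusted p = 0.00294). AT5G09570, which encodes a small mitochondrial protein with paired cysteines, had a level of 5.96, 5.94 and 4.96 in the variegated arrays, against 3.17, 3.3 and 2.97 in the wild-type arrays. It rose 5.56-fold, by 2.47 ± 0.24 (SE; limma adjusted p = 0.00718), and the third variegated array was below the other variegated arrays but above every wild-type array. Both rises passed the threshold in all 9 fits that left out 1 array, with changes between 2.38 and 2.79 for AT2G21640 and between 2.30 and 2.80 for AT5G09570.

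These genes head a list of 24 nuclear genes of the mitochondrial stress response and of alternative respiration, of which 8 were measured. The other 6 did not pass. Of all genes, 0.217% rose and 0.142% fell. All 8 changes were above 0, beside 7389 of all 13356 genes. In 7 of the 8 the variegated arrays lay wholly above the wild-type arrays. Across all 13356 genes, 8.71% had variegated arrays wholly above wild type and 6.98% had them wholly below. The median change over the 8 was 0.44, beside 0.015 over all genes. The list was drawn up with earlier results of these data known, as were the other function lists. It includes the largest called rises, AT2G21640 and AT5G09570, so these counts are not independent support. AT5G51440, a small heat shock protein of mitochondria, stood at 3.53, 3.98 and 3.22 in the variegated arrays, against 2.84, 2.93 and 3.08 in the wild-type arrays, a difference of 0.62 ± 0.20 (SE; limma adjusted p = 0.24). Among the alternative NAD(P)H dehydrogenases, which pass electrons into the respiratory chain without pumping protons, NDB3 stood at 3.70, 3.50 and 3.47 in the variegated arrays, against 3.16, 2.95 and 3.21 in the wild-type arrays. That difference of 0.45 ± 0.11 (SE; limma adjusted p = 0.12) was the largest of the 5 measured, and those of NDC1, NDB4 and NDB1 were 0.42, 0.36 and 0.23. NDB2, at 4.86, 5.36 and 5.01 in the variegated arrays, against 5.0, 4.55 and 4.53 in the wild-type arrays, was the member whose arrays overlapped. AT5G51440 and these dehydrogenases are described after their values were seen.

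**Figure D1:**
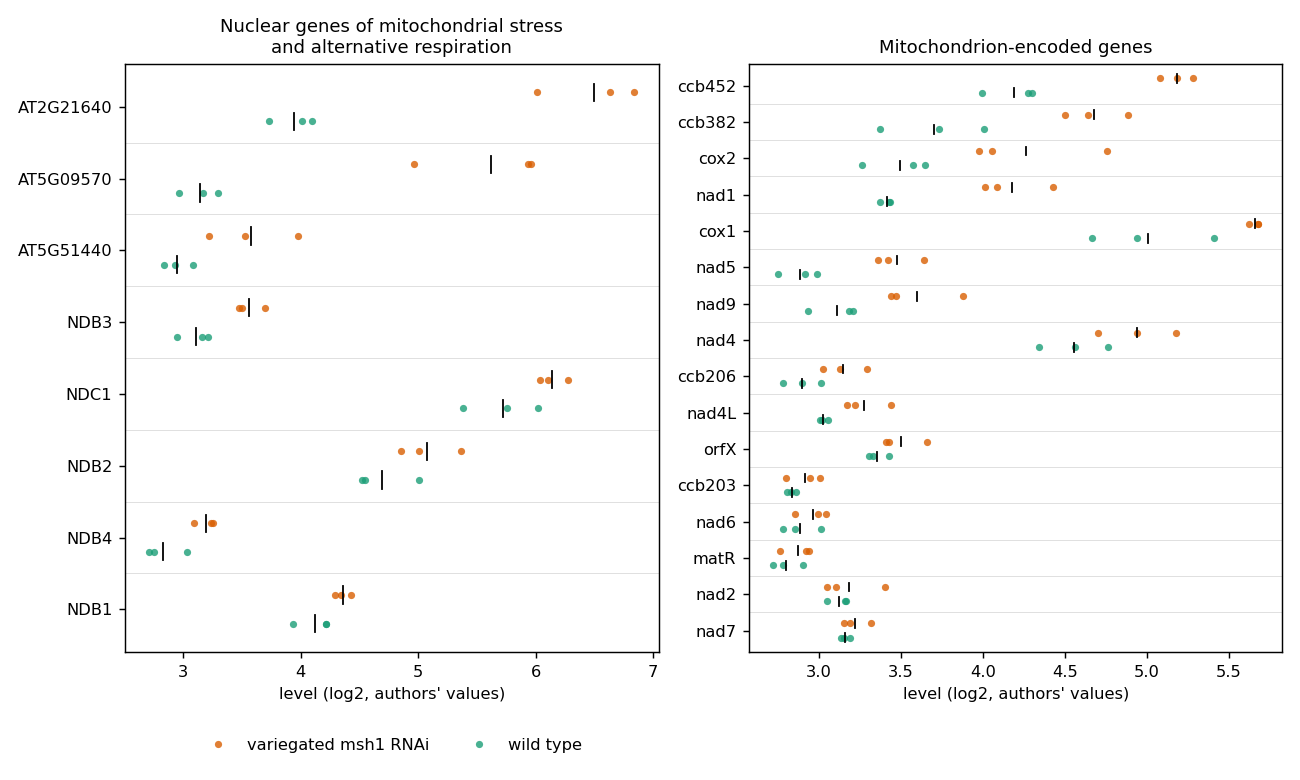
Level (log2) of each measured nuclear gene of mitochondrial stress and alternative respiration (left) and of each measured mitochondrion-encoded gene (right), 1 point per array, with variegated arrays above wild-type arrays in each row and a bar at the mean of 3. AT2G21640 and AT5G09570 have group means 2.55 and 2.47 apart, while the groups overlap for NDB2 and for 7 of the 16 mitochondrion-encoded genes.

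Probe sets listed for genes of the mitochondrial genome lay on the same side. Of 16 mitochondrion-encoded genes measured, 3 rose and none fell, beside 0.217% rising and 0.142% falling among all genes. All 16 changes were above 0, beside 7389 of all 13356 genes. In 9 the variegated arrays lay wholly above wild type, beside 8.71% of all genes. The median change was 0.32. Most of these probe sets were dim: the median of their levels was 3.31, below 3.41, the mean of the array medians. ccb452, a gene for the assembly of cytochrome c, stood at 5.18, 5.28 and 5.08 in the variegated arrays, against 4.3, 4.28 and 4.0 in the wild-type arrays. The nearest arrays of the groups were 0.78 apart, a 1.99-fold rise of 0.99 ± 0.11 (SE; limma adjusted p = 0.0127) that passed in 7 of the 9 omissions. nad1, a subunit of respiratory complex I, had a level of 4.09, 4.43 and 4.01 in the variegated arrays, against 3.43, 3.43 and 3.38 in the wild-type arrays. All variegated arrays were above wild type by at least 0.58, and the rise was 0.76 ± 0.10 (SE; limma adjusted p = 0.0213), passing in 5 omissions. nad5, another complex I subunit, had 3.64, 3.36 and 3.42 in the variegated arrays, against 2.99, 2.75 and 2.91 in the wild-type arrays. This dim probe set rose by 0.59 ± 0.093 (SE; limma adjusted p = 0.0383) and passed in 2 omissions.

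Different probe sets of nad1 disagree. The array holds 6 more, whose differences ran between -0.015 and 0.81, and none of them passed. The highest of these had 4.39, 4.52 and 3.63 in the variegated arrays, against 3.37, 3.39 and 3.37 in the wild-type arrays, with a limma adjusted p of 0.12. A further nad5 probe set was 0.29 higher with an adjusted p of 0.28. ccb382, a cytochrome c assembly gene like ccb452, did not pass, at 4.50, 4.89 and 4.64 in the variegated arrays, against 4.01, 3.73 and 3.37 in the wild-type arrays and a difference of 0.97 ± 0.18 (SE; limma adjusted p = 0.0585). The cytochrome oxidase subunits cox2 and cox1 were 0.77 and 0.65 higher, with arrays that did not overlap, and did not pass either. ccb382, cox1 and cox2 are described after their values were seen.

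Chromosome 2 of Col-0 carries a large insertion of mitochondrial DNA. A probe set listed for a locus there, or for a mitochondrial gene, may read the mitochondrial transcript, the nuclear copy or both. The array cannot separate them. On the sequenced clones of this insertion 23 loci were measured, of which 2 rose, 21 did not pass, 18 changes were above 0, and the median was 0.062. Over all 13356 genes, 0.217% rose, 7389 changes were above 0, and the median was 0.015. That list of loci was drawn up after the values were seen. AT2G07722 had a level of 4.78, 5.15 and 4.24 in the variegated arrays, against 3.34, 3.45 and 3.34 in the wild-type arrays. The variegated arrays spread over 0.91 but all exceeded wild type, a 2.54-fold rise of 1.35 ± 0.19 (SE; limma adjusted p = 0.024) that passed in 4 omissions. AT2G07707, annotated like a small subunit of mitochondrial ATP synthase, was brighter, with 7.29, 6.93 and 6.67 in the variegated arrays, against 5.89, 6.03 and 6.09 in the wild-type arrays. It rose by 0.96 ± 0.16 (SE; limma adjusted p = 0.0469) and passed in 3 omissions.

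Nuclear genes of the respiratory machinery gave no call. None of 8 measured genes of the respiratory complexes and their assembly passed, their median change was 0.068, and 5 were above 0 and 3 below. SDH2-1, an iron-sulphur subunit of complex II, was the lowest, at 7.47, 7.51 and 7.59 in the variegated arrays, against 7.94, 7.92 and 7.79 in the wild-type arrays and a difference of -0.36 ± 0.14 (SE; limma adjusted p = 0.37). MPPBETA, a processing peptidase that is part of complex III, differed by 0.13 ± 0.12 (SE; limma adjusted p = 0.73). None of the 3 measured genes of organelle genome maintenance and transcription passed, with differences between -0.12 and 0.11. AT5G15700, an RNA polymerase of mitochondria and plastids, stood at 3.53, 3.31 and 3.37 in the variegated arrays, against 3.25, 3.37 and 3.25 in the wild-type arrays, and AT2G01440, a RecG-type DNA helicase, at 3.34, 3.46 and 3.82 in the variegated arrays, against 3.51, 3.78 and 3.70 in the wild-type arrays. In both, the groups overlapped, with limma adjusted p of 0.67 and 0.79.

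Of the genes carried by the plastid genome, rpl20 alone rose and none fell among 69 measured. It encodes a protein of the large plastid ribosomal subunit, and its level was 4.77, 5.47 and 5.60 in the variegated arrays, against 3.69, 3.80 and 3.90 in the wild-type arrays. The lowest variegated array was 0.88 above the highest wild-type array, a 2.8-fold rise of 1.49 ± 0.20 (SE; limma adjusted p = 0.0223) that passed in 4 omissions. The 15 plastid ribosomal protein genes as a whole had a median change of 0.15, with 10 above 0 and 5 below, and a range of -0.77 to 1.49. The other 54 plastid genes had a median of 0.035, with 32 above 0, 22 below and none passing. Among all 13356 genes, 7389 changes were above 0 and 5967 below. clpP, a subunit of the plastid Clp protease, differed by 0.94 ± 0.23 (SE; limma adjusted p = 0.13), and ycf3, an assembly factor of photosystem I, by 0.92 ± 0.25 (SE; limma adjusted p = 0.17), both with arrays that did not overlap.

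Some nuclear genes for plastid proteins also rose, but most members of their lists did not pass. Cpn60beta2, a chaperonin subunit that helps plastid proteins fold, stood at 8.86, 9.08 and 8.71 in the variegated arrays, against 7.66, 7.99 and 7.93 in the wild-type arrays. Its 2.03-fold rise of 1.02 ± 0.12 (SE; limma adjusted p = 0.0148) stood on a bright signal, with groups 0.72 apart at their nearest, and it passed in 7 omissions. It was the single call among 3 measured plastid chaperones and proteases. CLPP4 differed by 0.12, and Cpn60beta3 by -0.56 with overlapping arrays. CCS, the copper chaperone that loads superoxide dismutase, had 7.81, 7.65 and 7.51 in the variegated arrays, against 6.77, 6.65 and 6.81 in the wild-type arrays. The rise was 1.88-fold, at 0.91 ± 0.13 (SE; limma adjusted p = 0.024), and passed in 4 omissions. The other 2 measured antioxidant genes, the plastid ascorbate peroxidases TAPX and SAPX, differed by 0.18 and -0.031 and did not pass.

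HEMB1, which makes porphobilinogen early in chlorophyll and haem synthesis, was the single call among 9 measured genes of chlorophyll synthesis. Its level was 8.84, 8.77 and 8.90 in the variegated arrays, against 8.42, 8.43 and 8.31 in the wild-type arrays. The spread within each group was 0.13, and the rise of 0.45 ± 0.072 (SE; limma adjusted p = 0.0408) was small and passed in 2 omissions. Of the 9 genes 8 were above 0, beside 7389 of all 13356 genes, and the median of the 9 was 0.28. In 6 the variegated arrays lay wholly above wild type, beside 8.71% of all genes. PORB, which carries out the light-dependent reduction of protochlorophyllide, was the one below 0, at -0.18. None of 3 measured light-harvesting genes passed, with LHCB4.1 differing by 0.057 ± 0.11 (SE; limma adjusted p = 0.90) and LHCB4.3 by -0.19 ± 0.17 (SE; limma adjusted p = 0.73), and all 3 with overlapping arrays. AT3G25660, a subunit of the organellar amidotransferase that makes glutaminyl-tRNA, rose by 0.49 ± 0.077 (SE; limma adjusted p = 0.0383). The variegated arrays of AT3G25660 lay between 7.77 and 7.85, against 7.24 to 7.46 in the wild-type arrays.

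Several of the largest rises fall outside the organelle groups. AT1G43590 had 5.30, 5.06 and 5.51 in the variegated arrays, against 2.96, 2.73 and 2.86 in the wild-type arrays. The wild-type arrays were below the array medians and every variegated array at least 2.1 higher, a 5.43-fold rise of 2.44 ± 0.15 (SE; limma adjusted p = 0.00048) that passed in all 9 omissions. AT5G43450, of the 2-oxoglutarate-dependent dioxygenase family, stood at 5.80, 5.59 and 5.17 in the variegated arrays, against 4.04, 3.88 and 4.31 in the wild-type arrays. It rose 2.72-fold, by 1.44 ± 0.16 (SE; limma adjusted p = 0.0127), and passed in 5 omissions. AT3G03270, a universal stress protein known to respond to low oxygen, had 6.48, 6.28 and 5.86 in the variegated arrays, against 5.12, 5.27 and 5.10 in the wild-type arrays. Its rise of 1.04 ± 0.15 (SE; limma adjusted p = 0.024) passed in 4 omissions, and the wild-type arrays lay within 0.17 of each other.

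AT3G57020, a strictosidine synthase-like protein, had a level of 6.62, 6.86 and 6.62 in the variegated arrays, against 5.91, 5.78 and 5.99 in the wild-type arrays. It rose 1.75-fold, by 0.81 ± 0.096 (SE; limma adjusted p = 0.0161), and passed in 5 omissions. AT2G34510, a cell-wall protein with a DUF642 domain, had 7.02, 6.98 and 7.32 in the variegated arrays, against 6.21, 6.27 and 6.56 in the wild-type arrays. Its groups were closest between the second variegated and the third wild-type array, and its rise of 0.76 ± 0.11 (SE; limma adjusted p = 0.0314) passed in 3 omissions. The remaining 15 rises were smaller, between 0.36 and 0.75. THI2.2, a thionin of the antimicrobial peptide family, was the highest of these at 0.75 ± 0.12 (SE; limma adjusted p = 0.0424). AT1G63660, which encodes GMP synthase, rose by 0.43 ± 0.058 (SE; limma adjusted p = 0.0213) and its variegated arrays lay within 0.02 of each other. AT1G47530, a transporter of the MATE family, rose by 0.44 ± 0.070 (SE; limma adjusted p = 0.0408), and AT3G02060, a helicase, by 0.50 ± 0.084 (SE; limma adjusted p = 0.0476).

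**Figure D2:**
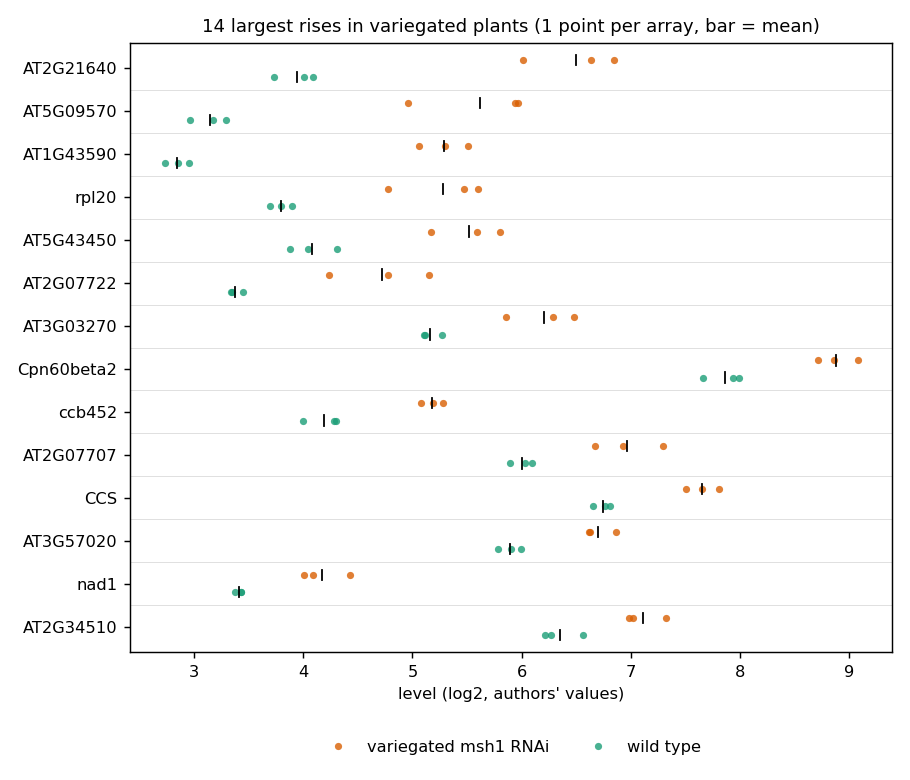
Level (log2) of the 14 called genes with the largest rises, 1 point per array, variegated above wild type in each row, with a bar at the mean of 3. No row overlaps, but the genes were called on these same arrays. The gap is widest for AT1G43590 and AT2G21640, where the lowest variegated arrays are at 5.06 and 6.01 and the highest wild-type arrays at 2.96 and 4.09.

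The largest change among the 48 named genes that passed was a fall, that of AT2G33850, annotated as similar to the cotton fibre protein E6. Its level was 2.83, 3.01 and 2.71 in the variegated arrays, against 5.81, 5.73 and 6.55 in the wild-type arrays. The variegated arrays sat below the array medians, and the 9.06-fold difference of -3.18 ± 0.19 (SE; limma adjusted p = 0.00048) passed in all 9 omissions. AT3G11880 had 3.3, 3.32 and 3.52 in the variegated arrays, against 5.21, 4.74 and 4.93 in the wild-type arrays. This was a 3-fold fall, a difference of -1.58 ± 0.12 (SE; limma adjusted p = 0.00224) that passed in all 9 omissions. In 7 of the 19 genes that fell the variegated mean was below 3.41, the mean of the array medians.

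GH9B8, PME61 and AT5G33370, of enzyme families that act on the wall or cuticle, were among the 19 genes that fell. They are grouped here after their values were seen, and AT2G34510, a cell-wall protein, went the other way with a rise of 0.76. GH9B8, an endoglucanase of the family that trims cell-wall glucans, stood at 3.96, 3.87 and 3.96 in the variegated arrays, against 5.22, 4.97 and 5.06 in the wild-type arrays. The spread was 0.09 within variegated and 0.25 within wild-type arrays, and the difference of -1.16 ± 0.10 (SE; limma adjusted p = 0.0033) passed in all 9 omissions. PME61, a pectin methylesterase that alters wall pectin, had 3.23, 3.31 and 3.37 in the variegated arrays, against 4.22, 3.98 and 4.07 in the wild-type arrays. The variegated arrays were below the array medians, and the difference of -0.79 ± 0.11 (SE; limma adjusted p = 0.024) passed in 3 omissions. AT5G33370, a GDSL lipase-type enzyme like those that polymerise cutin, had 3.93, 3.93 and 3.72 in the variegated arrays, against 4.79, 4.51 and 4.64 in the wild-type arrays. Its difference of -0.78 ± 0.13 (SE; limma adjusted p = 0.0422) passed in 2 omissions.

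GH9B8 was the single call among 5 measured genes for growing cells and their walls. Of the 5, 4 were below 0 with arrays wholly below wild type, beside 6.98% of all genes, and the median was -0.54. EXPB3, an expansin that loosens walls, did not pass, at 5.90, 5.78 and 5.26 in the variegated arrays, against 6.76, 6.98 and 6.76 in the wild-type arrays and a difference of -1.19 ± 0.23 (SE; limma adjusted p = 0.067). EXPA4, another expansin, differed by -0.54, COB, which orients cellulose, by -0.21, and EXPA8 by 0.042 with overlapping arrays. Neither of 2 measured genes of cell division passed. SIM, an inhibitor of cyclin-dependent kinases, came nearest with 3.77, 3.55 and 3.58 in the variegated arrays, against 4.51, 4.14 and 4.56 in the wild-type arrays. Its groups did not overlap, and the difference of -0.77 ± 0.13 (SE; limma adjusted p = 0.0516) was just short of the threshold. PRL, a subunit of the helicase that licenses DNA replication, differed by -0.31 ± 0.15 (SE; limma adjusted p = 0.49). The expansins and COB are described after their values were seen.

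A gene that acts on the wound hormone jasmonate was among the largest falls. AT2G38240 encodes an oxygenase that inactivates jasmonate and is itself induced by it, and its level was 5.07, 4.84 and 5.65 in the variegated arrays, against 6.90, 6.70 and 6.51 in the wild-type arrays. The highest variegated array was 0.86 below the lowest wild-type array, and the 2.86-fold fall, -1.52 ± 0.19 (SE; limma adjusted p = 0.0204), passed in 5 omissions. It was the single call of 6 measured jasmonate genes, whose median was -0.78. All 6 were below 0, beside 5967 of all 13356 genes. In 5 the variegated arrays lay wholly below wild type, beside 6.98% of all genes. JMT, which makes methyl jasmonate, stood at 3.08, 3.39 and 3.31 in the variegated arrays, against 4.0, 5.15 and 4.44 in the wild-type arrays. The wild-type arrays spread over 1.15, and the difference of -1.27 ± 0.25 (SE; limma adjusted p = 0.0724) did not pass. JRG21, an oxygenase related to AT2G38240, differed by -0.81, AT5G05600, of the same family, by -0.75, and the jasmonate-induced thionin THI2.1 by -0.69. AT3G11180 was at -0.0058, near the bottom of the scale in every array. JMT, JRG21, AT5G05600, THI2.1 and AT3G11180 are described after their values were seen.

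GDSL lipase-like and strictosidine synthase-like genes followed. AT1G54020, a GDSL lipase-like gene, had 3.40, 3.39 and 3.00 in the variegated arrays, against 5.18, 5.09 and 4.22 in the wild-type arrays. The third wild-type array was below the other wild-type arrays but above every variegated array, and the 2.96-fold fall, -1.56 ± 0.24 (SE; limma adjusted p = 0.0365), passed in 3 omissions. AT3G51450, strictosidine synthase-like as is the risen AT3G57020, had 6.34, 5.83 and 5.69 in the variegated arrays, against 7.18, 7.40 and 7.26 in the wild-type arrays. It fell 2.51-fold, at -1.33 ± 0.22 (SE; limma adjusted p = 0.0464), and passed in 2 omissions. MSRB5, a methionine sulfoxide reductase that repairs oxidised protein, stood at 6.36, 6.13 and 6.27 in the variegated arrays, against 6.89, 6.99 and 7.25 in the wild-type arrays. Its difference was -0.79 ± 0.11 (SE; limma adjusted p = 0.0223), and it passed in 4 omissions.

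AT4G29030, AT3G57780, AT1G26580 and AT3G29375 also fell and are named without a role. AT4G29030 stood at 5.85, 5.57 and 5.53 in the variegated arrays, against 6.30, 6.63 and 6.70 in the wild-type arrays, a difference of -0.90 ± 0.14 (SE; limma adjusted p = 0.0383). AT3G57780 had 3.29, 3.20 and 3.21 in the variegated arrays, against 4.02, 3.90 and 4.44 in the wild-type arrays, a difference of -0.89 ± 0.13 (SE; limma adjusted p = 0.0256). The nearest arrays of the groups were 0.46 apart for AT4G29030 and 0.61 apart for AT3G57780. AT1G26580 had 4.29, 4.45 and 4.0 in the variegated arrays, against 5.14, 5.02 and 5.09 in the wild-type arrays, a difference of -0.84 ± 0.11 (SE; limma adjusted p = 0.0213). AT3G29375 was below the array medians in every variegated array, at 2.91, 3.08 and 3.15 in the variegated arrays, against 4.05, 3.78 and 3.80 in the wild-type arrays, a difference of -0.83 ± 0.11 (SE; limma adjusted p = 0.0213). AT3G15410, a leucine-rich repeat protein, closed the 14 largest falls with 4.80, 5.03 and 5.03 in the variegated arrays, against 5.67, 5.64 and 5.64 in the wild-type arrays and a difference of -0.69 ± 0.12 (SE; limma adjusted p = 0.047). All of these passed in 2 to 5 omissions. The 5 remaining falls lay between -0.48 and -0.61, among them AT1G04770, a gene induced by sulphur deficiency, at -0.48 ± 0.081 (SE; limma adjusted p = 0.047).

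**Figure D3:**
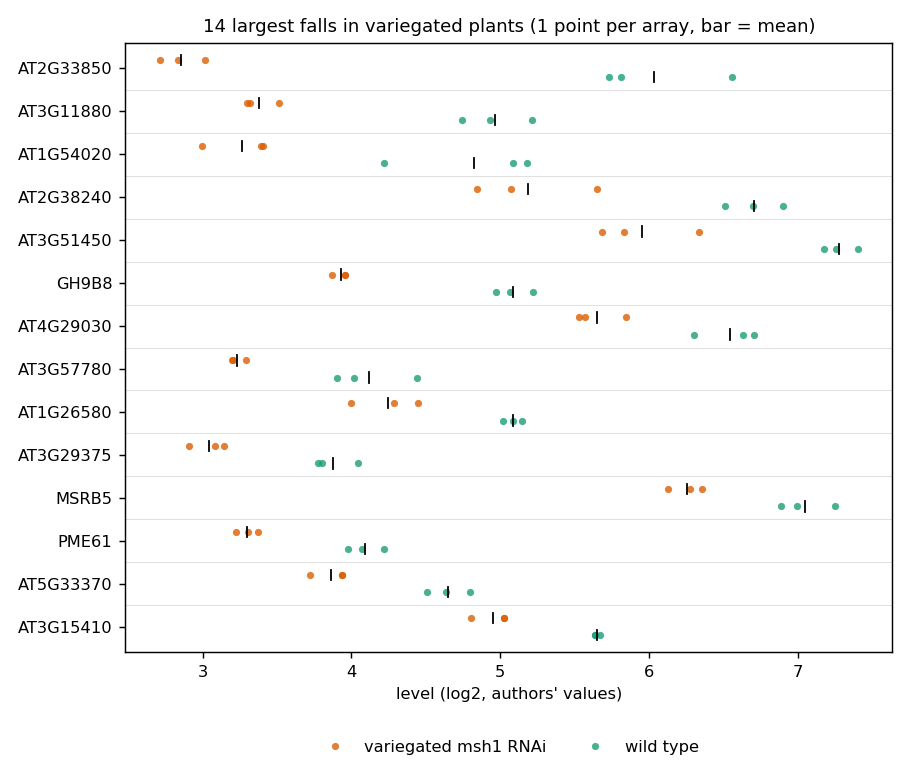
Level (log2) of the 14 called genes with the largest falls, 1 point per array, variegated above wild type in each row, with a bar at the mean of 3. No row overlaps, but the genes were called on these same arrays. AT2G33850 shows the widest gap, with variegated arrays between 2.71 and 3.01 and wild-type arrays between 5.73 and 6.55.

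Other functions gave no call. The 2 measured genes of salicylate and defence, PDF1.2 and SAG101, differed by 0.15 and 0.019, and the 2 of auxin and gibberellin, IAA29 and GH3.3, by -0.18 and 0.055, all with overlapping arrays. Of 4 measured genes of abscisic acid, drought and cold, DI21, a drought-induced gene, had 6.23, 6.21 and 6.12 in the variegated arrays, against 5.90, 5.74 and 5.93 in the wild-type arrays, a difference of 0.33 ± 0.080 (SE; limma adjusted p = 0.12). COR15A, a cold-induced plastid protein, had 9.20, 8.89 and 9.24 in the variegated arrays, against 9.36, 9.46 and 9.79 in the wild-type arrays, a difference of -0.43 ± 0.25 (SE; limma adjusted p = 0.57). In neither did the groups overlap, and the median of the 4 was -0.094. WRKY6 and WRKY53, transcription factors of senescence, differed by 0.38 and -0.026. DFR, an enzyme of anthocyanin synthesis and the single flavonoid gene measured, stood at 5.87, 6.10 and 5.14 in the variegated arrays, against 6.68, 6.71 and 6.99 in the wild-type arrays, a difference of -1.09 ± 0.32 (SE; limma adjusted p = 0.20). No member was measured of the lists for variegation and plastid signalling, heat shock and unfolded proteins, flowering time, phloem and xylem, floral organs or seed storage.

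Among called probe sets with no single gene, the largest rises were those of 258452_at and 264042_at. 258452_at stood at 7.62, 7.69 and 7.31 in the variegated arrays, against 5.59, 5.10 and 5.85 in the wild-type arrays, a 4.07-fold rise of 2.03 ± 0.24 (SE; limma adjusted p = 0.0154). 264042_at stood at 6.21, 6.22 and 5.69 in the variegated arrays, against 3.96, 3.69 and 4.51 in the wild-type arrays, a rise of 1.98 ± 0.32 (SE; limma adjusted p = 0.0424). In both, every variegated array was above every wild-type array. The largest falls were those of 256601_s_at and 259609_at. 256601_s_at had 4.97, 4.49 and 4.82 in the variegated arrays, against 6.99, 7.59 and 6.86 in the wild-type arrays, a difference of -2.39 ± 0.34 (SE; limma adjusted p = 0.0263). 259609_at had 5.82, 6.49 and 5.70 in the variegated arrays, against 8.01, 8.14 and 8.13 in the wild-type arrays, a difference of -2.09 ± 0.22 (SE; limma adjusted p = 0.0127). The genes of these probe sets are not named here.

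Leaving out single arrays left every direction in place among the 48 named genes. That outcome was fixed in advance, because the groups did not overlap in any of the 48. Between 7 and 19 of them passed without 1 variegated or wild-type array, and between 28 and 48 without 1 stunted array. Calls held in all 9 omissions for 6 genes: AT2G21640, AT5G09570 and AT1G43590, which rose, and AT2G33850, AT3G11880 and GH9B8, which fell. The other 42 lost the threshold in at least 1 omission, and 34 passed in 4 or fewer. Without the first variegated array 7 of the 48 passed, without the second 8 and without the third 19. Without the first wild-type array 11 passed, without the second 8 and without the third 17. The stunted arrays enter only through the shared estimate of spread: without the first 48 passed, without the second 28 and without the third 44. The cause of these differences was not tested. Taking bioB, a control RNA added to each sample, as a covariate, 33 of the 48 did not pass. Of the 101 called probe sets, 23 remained with this covariate. The bioB signal averaged 6.79 ± 0.73 in variegated and 7.77 ± 0.95 in wild-type arrays (log2, SD, n = 3 each; exact permutation p = 0.3). Why calls were lost with this covariate was not tested.

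**Figure D4:**
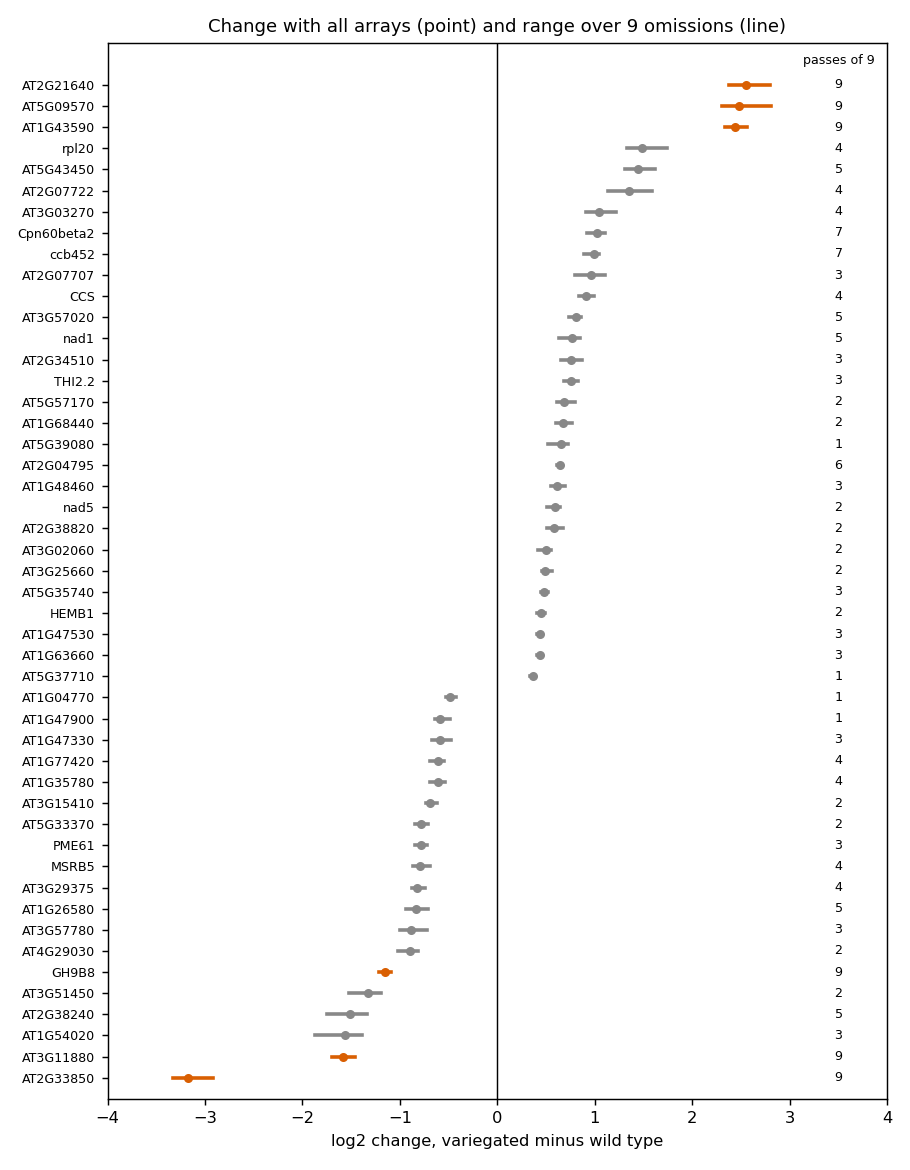
Log2 change (variegated minus wild type) of the 48 named genes with all arrays (point) and its range over the 9 fits that each left out 1 array (line), with the number of passes at right. No line reaches 0, which follows from groups that do not overlap, and the 6 genes in orange passed in all 9 fits.

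The stunted plants share the RNAi genotype, and their levels show which of the 48 genes stood apart between the phenotypes. Stunted and variegated arrays were compared in the same fit, where 1.74% of all probe sets passed. The variegated arrays also chose the genes, so the comparisons are not independent. Of the 48 genes 13 differed and 35 did not pass. Among the rises, 5 genes were lower in stunted than in variegated plants. AT5G09570 had 3.15, 3.47 and 3.24 in the stunted arrays, 5.96, 5.94 and 4.96 in the variegated arrays and 3.17, 3.3 and 2.97 in the wild-type arrays, so the stunted arrays overlapped wild type, and stunted minus variegated was -2.34 ± 0.24 (SE; limma adjusted p = 0.00361). AT2G07722 and nad1 also had stunted levels of 3.40 to 3.54 and 3.27 to 3.33, close to their wild-type levels of 3.34 to 3.45 and 3.38 to 3.43. AT3G03270 had 5.22, 5.05 and 5.27 in the stunted arrays, which overlapped its wild-type levels. AT2G21640 lay between the groups, with 5.67, 5.21 and 5.41 in the stunted arrays.

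In 6 other rises the stunted arrays were higher than the variegated ones. AT1G68440 had 6.65, 6.48 and 6.80 in the stunted arrays, 5.20, 5.16 and 5.37 in the variegated arrays and 4.75, 4.42 and 4.53 in the wild-type arrays, and stunted minus variegated was 1.4 ± 0.11 (SE; limma adjusted p = 0.00134). AT3G57020 had 8.06, 8.02 and 7.85 in the stunted arrays, all above its highest variegated array. THI2.2, AT3G02060, AT1G48460 and AT1G63660 were higher in stunted plants by 0.31 to 0.70. Of the falls, GH9B8 and AT5G33370 were lower still in stunted plants. GH9B8 had 3.3, 2.98 and 3.03 in the stunted arrays, and AT5G33370 had 3.44, 3.26 and 2.97. AT1G43590 and AT2G33850, which passed in every omission, did not pass in this comparison, with stunted minus variegated at -0.078 ± 0.15 and -0.15 ± 0.19 (SE; limma adjusted p = 0.88 and 0.81).

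**Figure D5:**
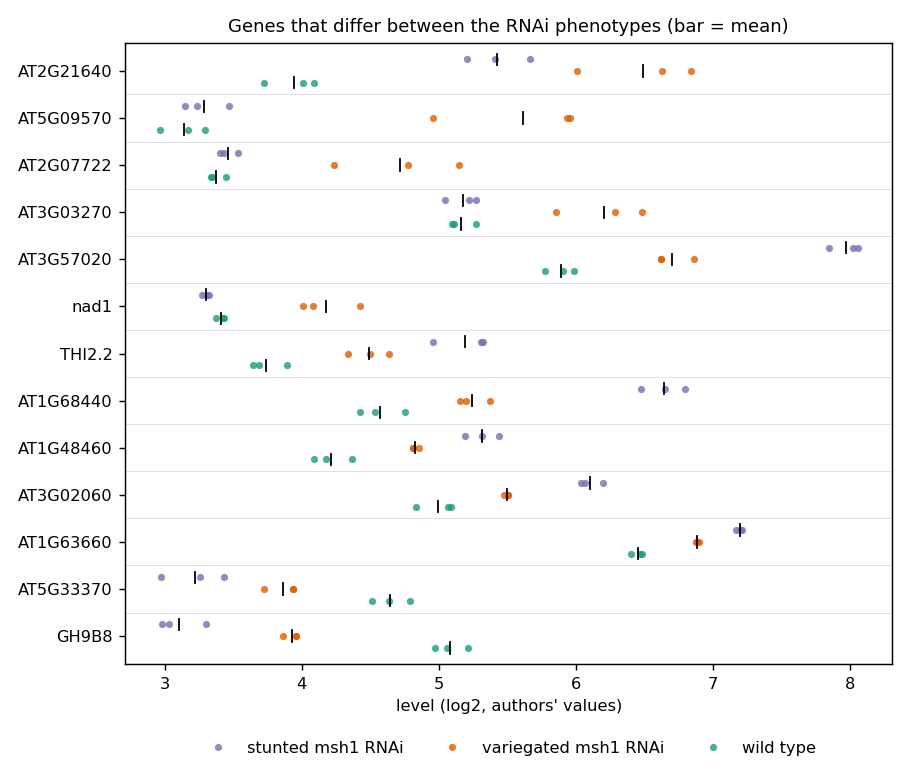
Level (log2) of the 13 named genes that differed between stunted and variegated plants, 1 point per array, with stunted, variegated and wild-type arrays from top to bottom in each row and a bar at the mean of 3. Stunted arrays of AT5G09570, AT2G07722, AT3G03270 and nad1 sit at or near wild type, while those of AT3G57020 and AT1G68440 all lie above the variegated arrays.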

How the data were processed

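The study hybridised 9 Affymetrix arrays. The authors deposited 1 log2 value per probe set and array in the series matrix, and the submitters' processing notes name RMA and the affy package. Their versions are not given in the sources used here. Probe sets were tied to genes through GEO's platform annotation and RefSeq's gene table: 13513 of the 22746 tested list 1 gene, 503 several and 8730 none, and 13286 of 13356 genes matched by gene number.

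limma 3.58.1 in R 4.3.3 fitted 1 mean per group over all 9 arrays with moderated errors and Benjamini-Hochberg adjustment over all tested probe sets, called at 0.05. Arrays carry no counts, so their number limits the precision. Every called gene is counted and placed in the figure of single-array omissions, but some of the smaller changes are not named in the text. Array values are given for the 14 largest rises and falls. From each gene list, the called members or else the 2 of lowest p are named. The 2 largest unnamed rises and falls are also given. Lists covered 27 functions and cell types with 349 genes, of which 69 were measured. Members and lists were chosen with earlier results of these data known. The labels give no batch. Deviations of replicates with the same number in both groups correlated at 0.17, 0.0045 and 0.26, against -0.22 to 0.057 for different numbers. Whether arrays with the same number share a batch was not tested. The 12 alternative fits and 9 omissions of an array are given below.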

Additional observations from a re-analysis of the deposited data

Results flagged for a closer look

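For 13 of the 48 named genes the level in stunted plants differed from that in variegated plants in the test of that difference itself (limma adjusted p under 0.05), so the change from wild type was not the same in both RNAi phenotypes. Values are stunted minus variegated on the log2 scale with the SE. Among genes that rose in variegated plants, those lower in stunted plants were AT5G09570 at -2.34 ± 0.24, AT2G07722 at -1.26 ± 0.19, AT2G21640 at -1.07 ± 0.21, AT3G03270 at -1.03 ± 0.15 and nad1 at -0.87 ± 0.10. Those higher in stunted plants were AT1G68440 at 1.4 ± 0.11, AT3G57020 at 1.27 ± 0.096, THI2.2 at 0.70 ± 0.12, AT3G02060 at 0.61 ± 0.084, AT1G48460 at 0.49 ± 0.091 and AT1G63660 at 0.31 ± 0.058. Among genes that fell, GH9B8 was at -0.83 ± 0.10 and AT5G33370 at -0.64 ± 0.13. The adjusted p ran between 0.00105 for AT3G57020 and 0.043 for AT5G33370.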

How the results depend on the processing

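Values are probe sets past the threshold, then those that rose and those that fell, beside 101, 61 and 40. The replicate number as a block gave 191, 89 and 102, and 91 of the 101 calls remained. The 6 arrays of the compared groups alone gave 206, 92 and 114, array weights 349, 166 and 183, the 25S covariate 155, 94 and 61, the actin covariate 185, 101 and 84, and the bioB covariate 40, 20 and 20. Without the dimmest 30% of probe sets 65 fell. Without moderation 1 passed, with 1 rising and 0 falling. Omitting single arrays gave 10 to 206, 6 to 108 and 4 to 98, lowest without the first variegated array and highest without the first stunted array. The cause was not tested. An intensity trend, robust moderation, median centring and quantile normalization stayed within 1.5 times in these counts, but not all calls remained. Of the 101 calls, 73 remained with the trend, 84 with quantile normalization, 97 with robust moderation and 99 with median centring. Of the 48 named genes, 15 lost the threshold with the trend and 7 with quantile normalization. No direction of the 48 genes changed in any of the 21 alternatives, which for the omissions follows from groups that did not overlap. SIM passed in 7 of them and clpP with array weights.

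Directions that turned were all near 0 and uncalled. With the bioB covariate these were RCA at -0.013, LHCB4.1 at -0.13, MPPBETA at -0.024, GH3.3 at -0.027 and SAG101 at -0.073. With 25S, LHCB4.1 was -0.00081 and WRKY53 0.0012, and with array weights SAG101 was -0.031. Over omissions the ranges were -0.040 to 0.15 for LHCB4.1, -0.11 to 0.014 for FMA, -0.11 to 0.0065 for TRY, -0.010 to 0.29 for PDF1.2, -0.0083 to 0.13 for GH3.3, -0.10 to 0.094 for WRKY53 and -0.081 to 0.069 for SAG101. Signal near the array medians limits the dim genes.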

Other observations

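Some of the largest changes did not pass the threshold. Among genes that did not pass, 31 differed by at least 2-fold, 9 higher and 22 lower in variegated plants, and the arrays overlapped for 1 of them. The genes below were chosen after their values were seen. AT2G41730 had 7.38, 6.99 and 5.89 in the variegated arrays, against 2.92, 3.46 and 3.98 in the wild-type arrays. Its difference of 3.3 ± 0.58 (SE; limma adjusted p = 0.0516) exceeded that of every called rise, and the variegated arrays spread over 1.49. Its probe set is of the kind that may also read related transcripts. AT2G04050, a transporter of the MATE family, had 4.71, 4.90 and 3.62 in the variegated arrays, against 3.01, 2.79 and 3.14 in the wild-type arrays, a difference of 1.43 ± 0.28 (SE; limma adjusted p = 0.071). EXLA1, an expansin-like wall protein, was higher, at 6.34, 6.31 and 6.19 in the variegated arrays, against 5.0, 5.01 and 4.54 in the wild-type arrays and 1.43 ± 0.31 (SE; limma adjusted p = 0.10), while the expansins EXPB3 and EXPA4 were lower. For EXLA1 the spread was 0.16 within variegated and 0.47 within wild-type arrays.

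JAL23 and AT1G52000, jacalin-type lectins, were both lower in variegated plants. JAL23 had 5.88, 5.97 and 4.96 in the variegated arrays, against 6.85, 7.21 and 7.31 in the wild-type arrays, a difference of -1.52 ± 0.35 (SE; limma adjusted p = 0.11). AT1G52000 had 6.16, 5.84 and 6.03 in the variegated arrays, against 7.23, 7.90 and 7.19 in the wild-type arrays, a difference of -1.43 ± 0.40 (SE; limma adjusted p = 0.18). TBL26, of the family that adds acetyl groups to wall polysaccharides, was also lower, at 5.72, 5.83 and 6.12 in the variegated arrays, against 7.16, 7.86 and 7.20 in the wild-type arrays and -1.52 ± 0.53 (SE; limma adjusted p = 0.30). CHI, a chitinase, was higher, with 5.05, 5.56 and 6.58 in the variegated arrays, against 4.27, 4.63 and 4.70 in the wild-type arrays and 1.2 ± 0.39 (SE; limma adjusted p = 0.26), and its variegated arrays spread over 1.53. No array of one group overlapped the other for any of these 7 genes, as in all but 1 of the 31 they were chosen from. Those were picked by the size of their difference on these same arrays, so this is not separate support. Over all genes, 8.71% had variegated arrays wholly above wild type and 6.98% wholly below.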
